A study of Sus scrofa with 24 samples.

Results

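SAA3 encodes serum amyloid A3, an acute-phase protein of the serum amyloid A family. Its probes were chosen by gene name in the deposited array files, where the gene stands as LOC733603 with the description serum amyloid A2, and a RefSeq gene table (assembly Sscrofa11.1) gives that gene the symbol SAA3. The choice found 1 gene of 5989 with a symbol and 4 of the 43603 probes, and the gene was picked because earlier results of the same data showed it high at the day 5 anastomosis. The study placed an arteriovenous haemodialysis graft, a tube joining an artery to a vein, in pigs and took vein wall at day 5 and at day 14 for Agilent 2-colour arrays. Total RNA came from the anastomosis of graft and vein, from the vein downstream of that anastomosis, and from external jugular vein as the control. The 6 groups are therefore anastomosis, downstream vein and control vein at day 5, and the same sites at day 14, with 4 samples each and 24 samples in all. The labels call the samples biological replicates, numbered 1 to 4 within each group, and leave unsaid whether samples that share a number and a day are of 1 animal. They name neither the side of the control vein nor the breed or age of the pigs, and no animals without a graft are among the groups.

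Serum amyloid A proteins are small lipid-binding proteins that travel in plasma on high-density lipoprotein and are made in large amounts during infection and injury. Their genes are switched on by interleukin 1, interleukin 6 and tumour necrosis factor, acting through NF-kappaB, C/EBP factors and STAT3. Liver makes most of the protein found in plasma, while SAA3 is known in mouse and cattle as a form made largely in other tissues, among them macrophages, adipocytes and mammary epithelium, and in human it is a pseudogene. Outside the liver, serum amyloid A proteins attract neutrophils and monocytes, bind Toll-like and scavenger receptors, and induce matrix-degrading enzymes.

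Probe sequences are printed here for the 3 probes whose place relative to each other could be read from the files, because they differed in how far they moved. The probes A_72_P298339 and A_72_P165616 carry the LOC733603 name in both annotation versions held in the files, and their starts on the annotated transcript lie 84 bases apart. A_72_P144946 carries that name only in the older version, where its start is given as 782, against 135 for A_72_P298339. Its reading as an opposite-strand probe beside A_72_P298339 rests on shared bases alone. The reverse complement of A_72_P144946 ends with the 11 bases with which A_72_P298339 begins, which are in capitals.
A_72_P298339: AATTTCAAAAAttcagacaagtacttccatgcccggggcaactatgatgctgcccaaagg
A_72_P165616: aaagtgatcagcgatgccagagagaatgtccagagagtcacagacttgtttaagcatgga
A_72_P144946: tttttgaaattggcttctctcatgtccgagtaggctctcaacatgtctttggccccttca
A_72_P144946 reverse complement: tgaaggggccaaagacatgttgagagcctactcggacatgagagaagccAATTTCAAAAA

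The fourth probe, A_72_P337818, carries the name only in the newer annotation version, with its start at 497, and was the brightest of the 4. It stands for the gene below unless another probe is named. In the RefSeq table the gene lies between LOC102165880 and SAAL1, in a cluster with the pseudogene SAA1P and with SAA2 and SAA4. No probe was named for SAA1, SAA2, SAA4 or SAAL1, so signal from related family members with similar sequence cannot be told apart from SAA3.

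The 24 samples lay on 16 arrays, 7 slides and 5 scan days, and between 56.9% and 80.2% of probes were well above background in a sample. Replicates 1 and 2 were read with an earlier version of the scanner software's extraction protocol than replicates 3 and 4, and reached 56.9% to 73.9%, against 70.1% to 80.2% in replicates 3 and 4. Control RNA was always in the green dye (Cy3), and anastomosis and downstream RNA always in the red dye (Cy5), so site and dye cannot be told apart in any comparison with the control. The anastomosis-to-downstream and day comparisons are within a dye. Endothelial and smooth muscle markers were bright in all groups, with mean levels of 10.30 to 12.23 and of 11.42 to 14.93 on the log2 scale over 6 and 8 markers, while hepatocyte markers lay between 6.43 and 6.85. A table of values processed by the submitters was deposited beside the scanner files. In its 18 columns for replicates 1 to 3, gene-centred values correlated best with the scanner file of the same sample in 18 of 18 cases (r = 0.68 to 0.891), whereas none of the 6 columns for replicate 4 did (r = 0.0773 to 0.465). Fitted SAA3 differences are therefore also given without replicate 4, or enter the ranges over left-out replicates in the closing section.

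SAA3 was highest at the day 5 anastomosis, where its log2 normalised intensity was 16.10, 14.06, 12.73 and 12.11 in replicates 1 to 4. The downstream vein at day 5 had 10.58, 12.16, 12.46 and 12.46. The control vein at day 5 had 11.72, 9.17, 7.99 and 8.34. All 4 anastomosis samples lay above all 4 control samples, while anastomosis and downstream overlapped, and so did downstream and control.

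Day 14 samples of the anastomosis had 11.56, 11.23, 8.68 and 14.81 in replicates 1 to 4. The downstream vein had 7.34, 9.07, 11.00 and 10.39. The control vein had 8.13, 11.67, 6.57 and 10.18. At this time the 3 sites overlapped, and replicate 4 was the highest anastomosis sample.

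**Figure D1:**
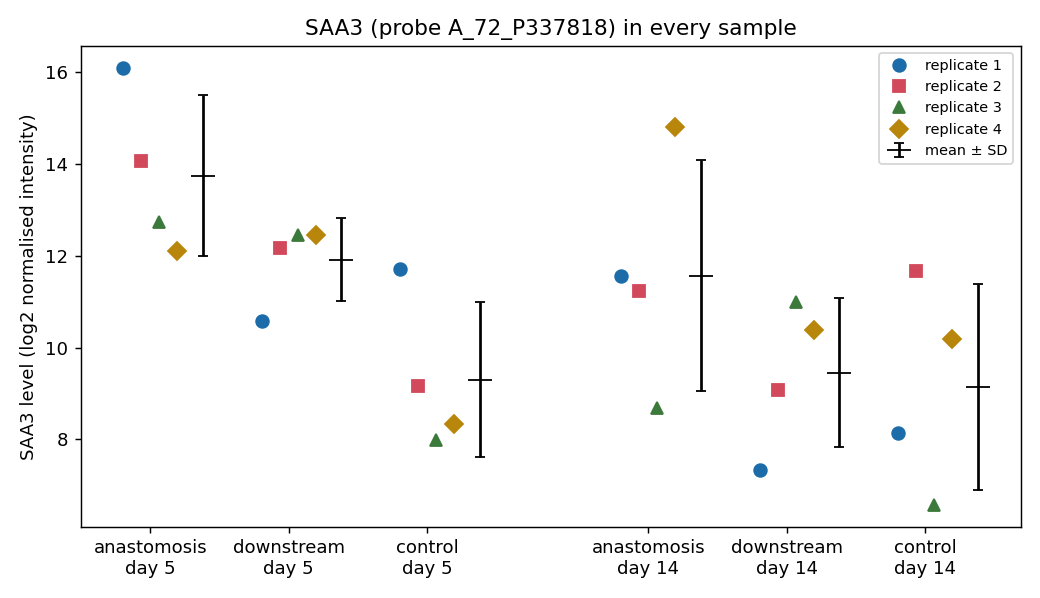
SAA3 (probe A_72_P337818) as log2 normalised intensity on the vertical axis in each of the 24 samples, by site and day; symbols mark the replicate number and bars the mean ± SD of 4 samples. The day 5 anastomosis samples span 12.11 to 16.10, above all day 5 control samples (7.99 to 11.72).

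As means ± SD (n = 4 each), SAA3 stood at 13.75 ± 1.76 at the day 5 anastomosis, 11.92 ± 0.90 in the day 5 downstream vein and 9.30 ± 1.69 in the day 5 control. The day 14 means were 11.57 ± 2.51 at the anastomosis, 9.45 ± 1.62 downstream and 9.14 ± 2.24 in the control. In descending order these are the day 5 anastomosis, the day 5 downstream vein, the day 14 anastomosis, the day 14 downstream vein, the day 5 control and the day 14 control. Each group in that order overlapped the next, with steps between neighbouring means of 1.83, 0.35, 2.12, 0.15 and 0.16. The day 5 anastomosis was the only group that lay wholly above others, namely both control groups and the day 14 downstream vein.

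The spread within a group was wide in all groups but the day 5 downstream vein, where the highest sample exceeded the lowest 3.69-fold. It did so 15.8-fold at the day 5 anastomosis, 13.3-fold in the day 5 control and 12.6-fold in the day 14 downstream vein. In the day 14 control it was 34.3-fold and at the day 14 anastomosis 69.8-fold. In the unlabelled green channel described below, SAA3 ran from 7.74 to 8.42 at day 5 and from 7.03 to 11.61 at day 14. Over all probes that channel was most like the control, and the wide day 5 spread of the labelled control was not seen there. The probe was well above background in 24 of 24 samples and saturated in 0, with spot intensities between 60.1 and 112064. These are tissue samples, so fewer cells of a type and less RNA per cell cannot be told apart.

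Taken within a replicate number at day 5, the anastomosis exceeded the control by 4.38, 4.90, 4.74 and 3.78 on the log2 scale, an SD of 0.50 between pairs. The fitted difference was 4.45 ± 1.14 (SE), or 21.8-fold, in a limma model of all 24 samples with the number within a day as a block. It had rank 5 by size of rise among the 33451 features tested and rank 3 among those with a gene symbol, in a comparison in which 19.3% of features passed the threshold of 0.05 on the adjusted p. No p is given for it, because the gene was chosen on this rise. Against the labelled control, which lay on the same array, the pair differences were steadier than the levels. The deviations of the anastomosis from its mean were 2.35, 0.31, -1.02 and -1.64, and those of the control were 2.42, -0.14, -1.31 and -0.97. This steadiness was not seen against the unlabelled green channel described below, where the differences of the same anastomosis samples had an SD of 1.78. Without replicate 4 the fitted difference from the labelled control was 4.67. Within the earlier protocol version (replicates 1 and 2) it was 4.64, and within the later version (replicates 3 and 4) it was 4.26.

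The day 14 differences between anastomosis and control were 3.42, -0.45, 2.11 and 4.62, positive in 3 of 4 pairs, with an SD of 2.17. The fitted difference was 2.43 ± 1.14 (SE), or 5.38-fold, with an unadjusted p of 0.0508 and an adjusted p of 0.203 by limma with Benjamini-Hochberg adjustment. In this comparison 8.79% of features passed, and 0 of the 4 SAA3 probes did, also at an unadjusted p under 0.05. Replicate 4 held the widest difference, and without it the value was 1.69 with an adjusted p of 0.618. Over all other settings tried the adjusted p ran between 0.0419 and 0.702, the lowest with median centring of the arrays. Within the earlier protocol version the difference was 1.49, and within the later version 3.37. The change of the anastomosis-to-control difference at day 14 relative to day 5, in which a constant dye shift cancels, was -2.02 ± 1.61 (SE), and -0.91 without replicate 2.

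In the day 5 downstream vein, SAA3 differed from the control by -1.14, 3.00, 4.47 and 4.13, so replicate 1 ran against the other numbers. The fitted difference was 2.61 ± 1.14 (SE), or 6.12-fold, and is given with no p because the same controls entered the choice of the gene. It was 0.93 within the earlier protocol version and 4.30 within the later. At day 14 the differences were -0.79, -2.60, 4.42 and 0.21, with a fitted value of 0.31 ± 1.14 (SE) and an adjusted p of 0.930 (limma, unadjusted p = 0.790). Of all features 0.921% passed in that comparison, and 0 of the 4 SAA3 probes did, also at an unadjusted p under 0.05. The day 14 value rested on replicate 3: without it the difference was -1.06.

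Between the graft sites at day 5, the anastomosis differed from the downstream vein by 5.52, 1.90, 0.26 and -0.35, a fitted 1.83 ± 1.14 (SE), and 0.60 without replicate 1. The earlier protocol version by itself gave 3.71 and the later version -0.04. At day 14 the differences were 4.22, 2.15, -2.31 and 4.42, a fitted 2.12 ± 1.14 (SE) with an adjusted p of 0.416 (limma, unadjusted p = 0.0836). Here 0% of features passed and 0 of the 4 SAA3 probes, although 4729 features had an unadjusted p under 0.05. Without replicate 3 the value was 3.60 with an adjusted p of 0.115, and without replicate 4 it was 1.35 with an adjusted p of 0.762.

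**Figure D2:**
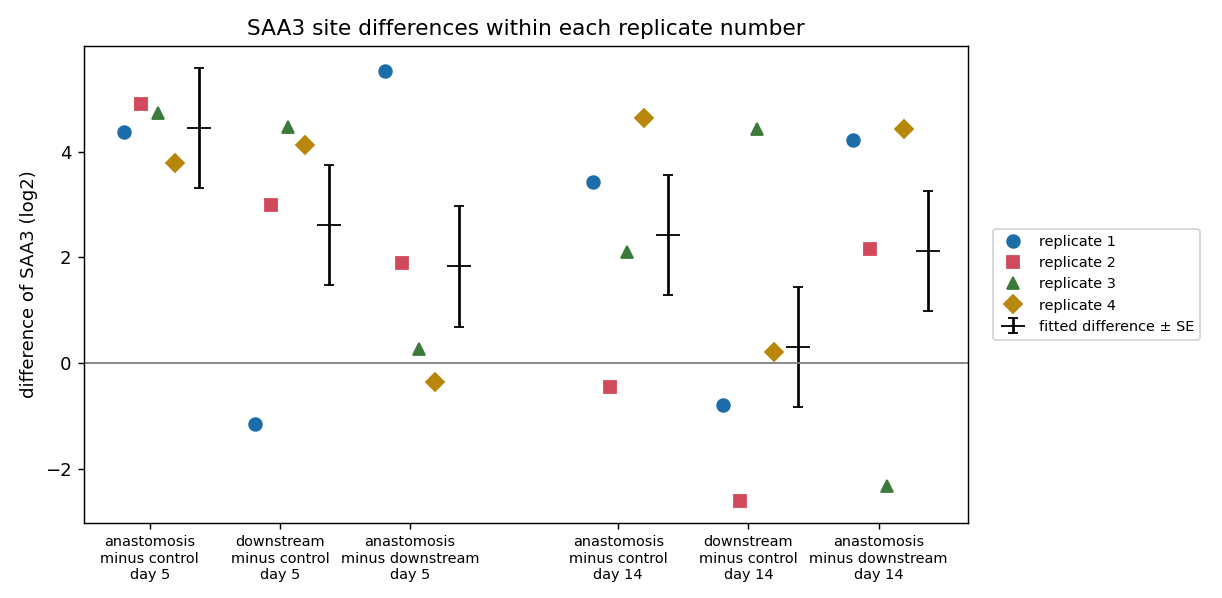
Differences of SAA3 between sites on the log2 scale (vertical axis) within each replicate number, for 6 site comparisons; symbols mark the replicate number and the bars the fitted difference ± SE. The anastomosis-to-control differences at day 5 lie between 3.78 and 4.90, while each other comparison holds at least 1 negative difference.

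Over time, SAA3 at the anastomosis was 2.18 lower at day 14 than at day 5 on the log2 scale, written as a difference of -2.18 ± 1.29 (SE, 8 samples). Without replicate 4, whose day 14 sample was the highest of its group, the difference was -3.81, and without replicate 1 it was -1.39. The earlier protocol version by itself gave -3.69 and the later version -0.67. Fitted on the authors' deposited table of processed values, the difference was -4.18 ± 0.56 (SE), and -3.93 without replicate 4.

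The downstream vein at day 14 differed from that at day 5 by -2.47 ± 0.80 (SE), with 7.34 to 11.00 at day 14 and 10.58 to 12.46 at day 5. Its unadjusted p was 0.0143 and its adjusted p was 1 by limma, in a fit in which 0% of features passed and 1496 had an unadjusted p under 0.05. Of the 4 SAA3 probes 0 passed and 3 had an unadjusted p under 0.05. Within the earlier protocol version it was -3.16, and within the later version -1.77. With the replicate number as a block the adjusted p was 0.377, and over the settings tried it ran between 0.134 and 1. The control vein changed sign with the samples used: its difference was -0.16 ± 1.20 (SE), 0.98 without replicate 1 and 0.26 without replicate 3. On the authors' deposited table it was -1.75 ± 0.91 (SE), and -1.56 without replicate 4.

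The other SAA3 probes gave smaller differences in the same samples. At the day 5 anastomosis against the control, A_72_P165616 differed by 3.51, 3.46, 3.04 and 2.13 within the 4 numbers, a fitted 3.04 ± 0.88 (SE). A_72_P298339 differed by 3.44, 2.53, 2.11 and 1.35, a fitted 2.36 ± 0.71 (SE). The opposite-strand probe A_72_P144946 differed by 2.25, 0.64, 0.43 and 0.30, a fitted 0.91 ± 0.34 (SE). Thus all 4 probes were higher in 4 of 4 pairs, and replicate 4 had the smallest difference for each. This count is a description, because the gene was chosen on this rise and the probes share the arrays.

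The pattern over samples was close for the 3 brighter probes and looser for A_72_P144946. Pearson's r of A_72_P337818 over the 24 samples, given as a description of probes that share arrays, was 0.97 with A_72_P165616, 0.92 with A_72_P298339 and 0.72 with A_72_P144946. The opposite-strand probe was well above background in 23 of 24 samples, with day 5 means of 7.72 ± 1.31 at the anastomosis, 6.94 ± 0.21 downstream and 6.81 ± 0.47 in the control (SD, n = 4 each). Only replicate 1 of the day 5 anastomosis, at 9.54, stood clear of the rest of its values, which ran between 6.24 and 7.74. At day 14, the fitted anastomosis-to-control differences were 1.50 for A_72_P165616, 1.03 for A_72_P298339 and 0.38 for A_72_P144946, with adjusted p of 0.319, 0.409 and 0.540 by limma. Without replicate 4 they were 0.80, 0.29 and 0.14. The downstream-to-control differences at day 14 were -0.17, -0.31 and 0.12 for the same probes, so their sign differed between probes.

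**Figure D3:**
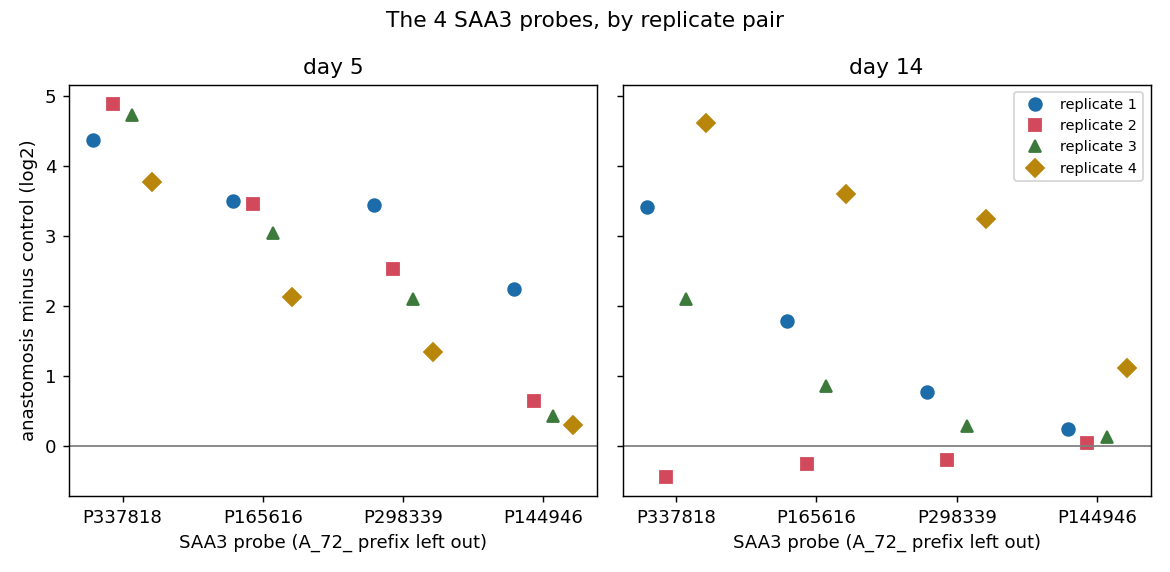
Anastomosis minus control on the log2 scale (vertical axis) within each replicate number for each of the 4 SAA3 probes, at day 5 (left) and day 14 (right). At day 5 the brightest probe lies between 3.78 and 4.90 and the opposite-strand probe A_72_P144946 between 0.30 and 2.25.

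A further channel resembled the control vein. The green channel of the 8 downstream arrays is not described by the labels used here. Over all probes it correlated best with the control of the same number and day on 8 of 8 arrays (r = 0.914 to 0.978). SAA3 in that channel was 8.21, 7.98, 7.74 and 8.42 at day 5 and 7.18, 11.61, 7.03 and 8.32 at day 14.

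The labelled control minus this channel was 3.51, 1.19, 0.25 and -0.08 at day 5, and 0.95, 0.06, -0.46 and 1.86 at day 14. The 3 widest gaps fell on the arrays whose anastomosis sample was brightest, at 16.10, 14.81 and 14.06. On these arrays the control spot had 1.24%, 2.17% and 1.36% of the intensity of the anastomosis spot. Replicate 3 of day 5, with 1.25%, had a gap of 0.25. A_72_P165616 gave gaps of 2.92, 0.75, 0.13 and 0.07 at day 5 and of 0.48, 0.02, -0.21 and 1.53 at day 14. The part of the bright red channel, or of a difference between RNA samples, in these gaps was not tested.

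Set against this channel, the day 5 anastomosis was higher by 7.89, 6.08, 4.99 and 3.70 (5.66 ± 1.78, SD, n = 4) and the day 5 downstream vein by 2.37, 4.18, 4.72 and 4.04 (3.83 ± 1.01, SD, n = 4). The downstream vein of replicate 1, which lay below its labelled control, lay above this channel. At day 14 the anastomosis differed from the channel by 4.37, -0.38, 1.65 and 6.49 and the downstream vein by 0.16, -2.54, 3.96 and 2.07. Replicate 2 of day 14 was high in both green channels, at 11.67 in the labelled control and 11.61 in the unlabelled channel.

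**Figure D4:**
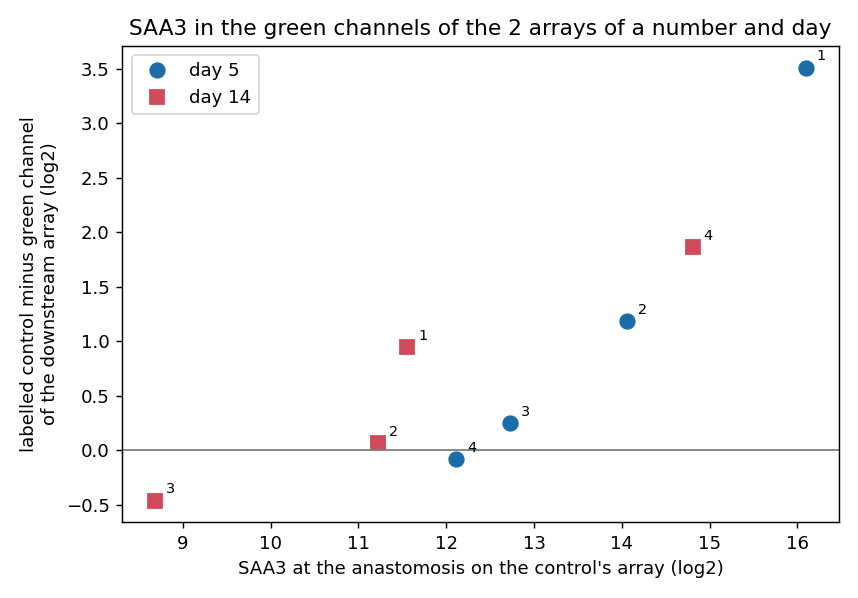
Labelled control minus the unlabelled green channel of the same number and day (log2, vertical axis) against SAA3 at the anastomosis on the control's array (log2, horizontal axis); each of the 8 points is a replicate number of day 5 or day 14. The gap runs from -0.46, where the anastomosis level is 8.68, to 3.51, where it is 16.10.

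In the authors' deposited table the replicate 4 values were 15.76 at the day 5 anastomosis, 15.37 in the day 5 downstream vein and 10.13 in the day 5 control. For day 14 the table had 10.83 at the anastomosis, 9.31 downstream and 7.82 in the control. The scanner software's processed signals for the same samples were 13.57, 13.69 and 9.35 at day 5 and 16.11, 11.37 and 11.30 at day 14.

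In this table, replicate 4 of the anastomosis was thus higher at day 5 than at day 14, and in the scanner files it was lower. The table's anastomosis-to-control differences were 4.37, 4.96, 5.21 and 5.63 at day 5 and 3.92, 0.35, 3.16 and 3.01 at day 14. The day 14 difference of replicate 2 was thus above 0 in the table and below 0, at -0.45, in the scanner files. Its values lie on a log2-like scale, and its normalisation and centring are not given in the sources used here.

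**Figure D5:**
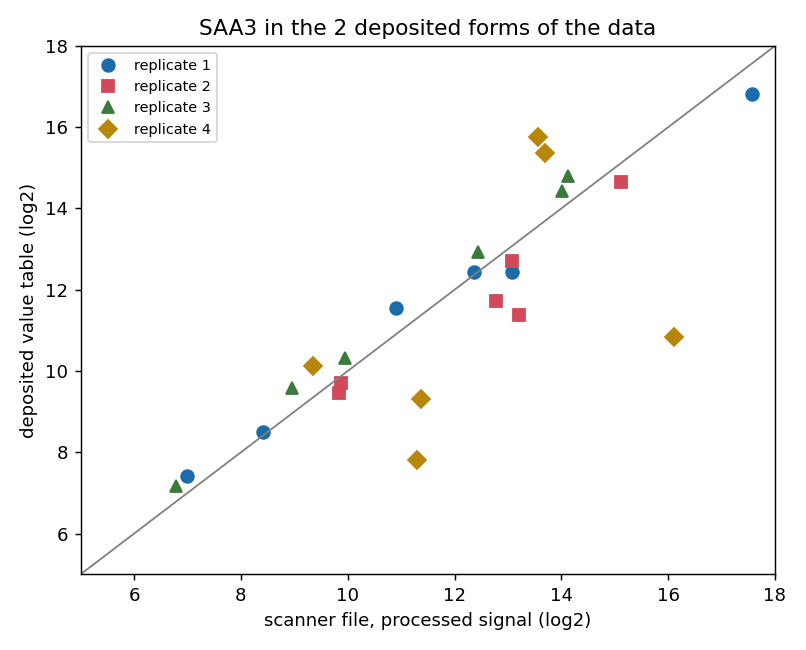
SAA3 (probe A_72_P337818) in the deposited value table (log2-like, vertical axis) against the processed signal of the scanner files (log2, horizontal axis) for the 24 samples; the line marks equality and symbols mark the replicate number. The points farthest from the line are of replicate 4, among them the day 14 anastomosis at 10.83 in the table and 16.11 in the scanner file.

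Among other acute-phase genes, the number of calls depended on the processing. Of 36 listed genes, SAA3 left out, 25 had a probe and 21 were bright enough to test. Over the other settings tried, 0 to 4 of the 21 passed at the anastomosis on each day. In the downstream vein it was 0 to 7 at day 5 and 0 to 5 at day 14. The counts that follow are those of the main processing. At day 5, 0 of the 21 passed at the anastomosis and 0 in the downstream vein, with 4 and 2 at an unadjusted p under 0.05 and median differences from the control of -0.10 and 0.10. Of all features, 9.07% were called higher and 10.3% lower at the day 5 anastomosis, and 3.19% higher and 5% lower in the day 5 downstream vein, 8.19% in both directions together. CRP, the gene of C-reactive protein, differed by -1.06 ± 0.38 (SE) at the day 5 anastomosis with an adjusted p of 0.0631 by limma. HP, which encodes haptoglobin, differed by -0.39 and ITIH4, whose product is the major acute-phase protein of pig plasma, by -0.65, with adjusted p of 0.513 and 0.238. LBP, which carries bacterial lipopolysaccharide to its receptor, differed by 0.14 with an adjusted p of 0.460.

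In the day 14 anastomosis 1 of the 21 rose and 1 fell, where 4.77% of all features were called higher and 4.02% lower. The list was thus near the share of all features. C3, the central complement component, was 2.80 ± 0.62 (SE) above the control, higher in 4 of 4 pairs, with an adjusted p of 0.0149 by limma. CRP was at -1.40 ± 0.38 (SE), lower in 3 of 4 pairs, with an adjusted p of 0.0344. Both calls were lost without replicate 4, where the adjusted p was 0.135 for C3 and 0.282 for CRP, and without replicate 1, where it was 0.0662 and 0.0906. CRP was also lost without replicate 3 (0.162). In the day 14 downstream vein 0 of the 21 passed, with 2 at an unadjusted p under 0.05. PTX3 and LCN2, acute-phase genes made by many tissues, had no named probe, and ORM1 was too dim to test. Among 13 tested genes of liver-made plasma proteins, TF was at -1.84 ± 0.38 (SE, adjusted p = 0.00452 by limma) at the day 5 anastomosis. F2 was also called lower there, at -1.95 to -1.62 over left-out replicates. At the day 14 anastomosis F2 was called lower and APOA1 higher, at -1.14 to -0.73 and 1.24 to 1.90 over left-out replicates. This F2 call was lost without replicate 3 (adjusted p = 0.139 by limma) and without replicate 4 (0.344). In the day 5 downstream vein F2 was called lower, at -1.69 to -1.32 likewise, and APOA1 higher, at 0.67 to 1.13. APOA1 was also called higher in the day 14 downstream vein, at 1.51 to 1.81. Of all features 3.19% were called higher and 5% lower in the day 5 downstream vein, and 0.646% higher at day 14.

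Of the cytokines and signal transducers known to switch on serum amyloid A genes, 26 of 42 could be tested. At the day 5 anastomosis 1 rose and 3 fell, with a median of -0.00, where 9.07% of all features were called higher and 10.3% lower. The list thus held no larger share of calls than all features. The riser was LIF, a cytokine of the interleukin 6 family, at 0.67 ± 0.15 (SE, adjusted p = 0.00635 by limma, and 0.0621 without replicate 3). NFKBIZ, a co-regulator of NF-kappaB target genes, fell by 2.02 on the log2 scale (adjusted p = 0.0195), and its adjusted p was 0.0552 to 0.167 without replicate 1, 2 or 4. TRAF6, an adaptor of interleukin 1 and Toll-like receptors, was at -0.47 (adjusted p = 0.0122, and 0.0540 to 0.0568 without replicate 1, 2 or 4), and with median centring of the arrays it was at 0.13. IL6 itself differed by 0.53 ± 0.75 (SE, adjusted p = 0.712), STAT3 by 0.02 and CEBPB by 0.06. TNF stood at -1.04 with an adjusted p of 0.292.

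At the day 14 anastomosis 1 of the 26 rose and 4 fell, with a median of -0.23, where 4.77% of all features were called higher and 4.02% lower. IL1A was at -2.20 ± 0.63 (SE, adjusted p = 0.0427 by limma), RELA, a subunit of NF-kappaB, at -0.83 (adjusted p = 0.00670) and IL6ST, the shared signalling receptor of the interleukin 6 family, at -0.79 (adjusted p = 0.0249). IL6 differed by -2.10 ± 0.75 (SE) with an adjusted p of 0.0967. None of the 5 calls passed without replicate 4, where 0.416% of all features did. In the downstream vein 0 of the 26 passed on either day, with 6 at an unadjusted p under 0.05 on each. IL1B, SOCS3 and CEBPD had no named probe.

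Among receptors and binding partners of serum amyloid A, 14 of 23 were tested. At the day 5 anastomosis, where 9.07% of all features were called higher and 10.3% lower, 3 rose and the median was 0.14. These were MSR1, a macrophage scavenger receptor, at 2.50 ± 0.39 (SE, adjusted p = 0.00103 by limma), SCARB1, a receptor of high-density lipoprotein, at 1.04 ± 0.19 (adjusted p = 0.00200), and SELENOS, a selenoprotein of the endoplasmic reticulum, at 0.96 ± 0.13 (adjusted p = 6.74e-04). All 3 also passed without replicate 4, where 7.2% of all features did. The same 3 passed in the day 5 downstream vein, at 2.19, 0.84 and 0.59, and at the day 14 anastomosis, at 2.78, 0.70 and 0.70, and in neither case without replicate 4. Of all features 3.19% and 4.77% were called higher in these comparisons, and 8.19% and 8.79% passed in either direction. Without replicate 4, 0.00598% and 0.416% passed. In the day 14 downstream vein 0 of the 14 passed, with 3 at an unadjusted p under 0.05. TLR2 differed by 0.80 at the day 5 anastomosis (adjusted p = 0.0790), TLR4 by 0.53 (adjusted p = 0.342) and CD36 by -2.01 (adjusted p = 0.308). FPR2, a chemotactic receptor of serum amyloid A, had no named probe.

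Matrix-degrading enzymes and their inhibitors held more calls at the anastomosis than the other pathway lists. Of 12 tested genes out of 16, 5 rose at the day 5 anastomosis, 6 at the day 14 anastomosis, 4 in the day 5 downstream vein and 1 in the day 14 downstream vein, where 0.646% of all features were called higher and 0.275% lower. None of the 12 fell, and their medians were 1.23, 1.56, 0.84 and 0.49. Of all features 9.07% were called higher at the day 5 anastomosis, 4.77% at the day 14 anastomosis and 3.19% in the day 5 downstream vein. TIMP1, an inhibitor of matrix metalloproteinases, was 2.65 ± 0.54 (SE) above the control at the day 5 anastomosis (adjusted p = 0.00419 by limma), PLAU, the urokinase plasminogen activator, 2.38 ± 0.44 (adjusted p = 0.00245) and CTSB, a lysosomal cathepsin, 1.20 ± 0.21 (adjusted p = 0.00194). CTSD was also called there, at 1.26 ± 0.30 (SE, adjusted p = 0.00944 by limma, 0.0540 without replicate 3 and 0.0649 without replicate 4). At the day 14 anastomosis MMP14, a membrane-bound collagenase, was 1.92 ± 0.34 (SE) above the control (adjusted p = 0.00590). Without replicate 4 the counts were 3, 3, 0 and 0, where 7.2%, 0.416%, 0.00598% and 0.012% of all features passed. MMP3, which serum amyloid A is known to induce in fibroblasts, differed by 0.14 at the day 5 anastomosis (adjusted p = 0.564 by limma). Its probe was dim, with means of 6.72 there and 6.58 in the control and 3 of 4 samples of each well above background. So dim a probe limits what this value can show.

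Of the genes that draw in neutrophils or hold them at the vessel wall, 15 of 19 were tested and 1 rose at the day 5 anastomosis, CCL20, a chemokine for dendritic cells and lymphocytes, at 3.23 ± 0.67 (SE, adjusted p = 0.00451 by limma, and 0.0521 without replicate 3). CXCL8, the main neutrophil chemokine, differed by 1.51 ± 0.64 (SE) with an adjusted p of 0.122, and by 2.32 with an adjusted p of 0.0455 without replicate 4. CCL2, a monocyte chemokine, differed by -0.04 (adjusted p = 0.981). Of all features 9.07% were called higher and 10.3% lower at the day 5 anastomosis, and 4.77% and 4.02% at the day 14 anastomosis. At the day 14 anastomosis 2 fell, CXCR2, a chemokine receptor of neutrophils, at -2.15 (adjusted p = 0.00172) and CXCL2, a neutrophil chemokine, at -2.33 (adjusted p = 0.0422, and 0.104 to 0.216 without replicate 1, 2 or 4).

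Markers of cell types that the vein wall could hold are given beside SAA3, those known to make it in other species first. To set beside each list, 9.07% of all features were called higher and 10.3% lower at the day 5 anastomosis. At the day 14 anastomosis it was 4.77% and 4.02%. In the downstream vein it was 3.19% and 5% at day 5, and 0.646% and 0.275% at day 14. Of 13 monocyte and macrophage markers tested out of 17, 5 rose at the day 5 anastomosis, 4 in the day 5 downstream vein, 5 at the day 14 anastomosis and 0 in the day 14 downstream vein (2 at an unadjusted p under 0.05). Their mean log2 level ran from 11.54 to 12.41 at the day 5 anastomosis and from 11.56 to 12.47 downstream, against 10.68 to 11.29 in the day 5 control. On day 14 it reached 13.01 at the anastomosis, where every sample lay above the highest control, and ran from 10.54 to 12.53 downstream, against 10.76 to 11.22 in the control. The largest called rises at the day 5 anastomosis were LYZ, at 3.32 ± 1.09 (SE, adjusted p = 0.0455 by limma), and SLC11A1, at 3.16 ± 0.57 (adjusted p = 0.00207). The LYZ call was lost on leaving out any replicate (adjusted p of 0.0571 to 0.149). MSR1 is above, and CD163, a haemoglobin scavenger receptor of macrophages, was 1.35 ± 0.28 (SE) above the control at the day 5 anastomosis (adjusted p = 0.00475 by limma, 0.0553 without replicate 1 and 0.0649 without replicate 4). Without replicate 4, 2 markers passed at the day 5 anastomosis and 0 in the other comparisons. Of all features 7.2% then passed at the day 5 anastomosis and 0.416% at the day 14 anastomosis. In the downstream vein it was 0.00598% at day 5 and 0.012% at day 14. The part of macrophages in the SAA3 difference was not tested.

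Of 14 adipocyte markers, 1 fell at the day 5 anastomosis, 1 in the day 5 downstream vein, 1 at the day 14 anastomosis and 0 in the day 14 downstream vein (1 at an unadjusted p under 0.05), and 0 rose. The faller was CFD, the gene of the adipocyte protease adipsin, each time. It was at -2.88 ± 0.39 (SE, adjusted p = 5.92e-04 by limma) at the day 5 anastomosis, and the adjusted p was 0.0127 without replicate 4. Its values of -2.03 in the day 5 downstream vein (adjusted p = 0.0103) and -1.35 at the day 14 anastomosis (adjusted p = 0.0429) had adjusted p of 0.129 and 0.142 without replicate 4. Their mean level was 8.96 to 9.90 at the day 5 anastomosis, against 9.73 to 11.26 in the day 5 control, and spread from 9.47 to 14.52 in the day 14 control. ADIPOQ, the adiponectin gene of adipocytes, differed by -4.66 at the day 5 anastomosis (adjusted p = 0.155) and was well above background in 2 of its 4 samples. The part of adipocytes in the SAA3 levels was not tested. None of the 7 hepatocyte markers tested passed in the comparisons with the control, with 0 or 1 at an unadjusted p under 0.05 in each, and their mean stayed between 6.45 and 6.66 at the day 5 anastomosis, against 6.43 to 6.64 in the control. ALB differed by 0.01 (adjusted p = 0.983).

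Of 8 smooth muscle markers, 6 fell at the day 5 anastomosis and 3 in the day 5 downstream vein, with medians of -1.90 and -1.81. Their mean level was 11.79 to 13.22 at the day 5 anastomosis and 11.61 to 13.43 downstream, against 13.99 to 14.93 in the control. None passed without replicate 4, where 7.2% and 0.00598% of all features did in these comparisons. With all replicates, 10.3% of all features were called lower at the day 5 anastomosis and 5% in the day 5 downstream vein. The part of smooth muscle cells in the SAA3 difference was not tested.

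Of 6 endothelial markers tested out of 10, 3 rose at the day 5 anastomosis, 3 in the day 5 downstream vein, 2 at the day 14 anastomosis and 1 in the day 14 downstream vein, and none fell. Their median differences from the control were 0.87, 0.74, 0.49 and 0.86. The mean level was 11.99 to 12.22 at the day 5 anastomosis and 11.96 to 12.23 downstream, against 11.05 to 11.48 in the day 5 control. At day 14 it was 11.60 to 12.09 at the anastomosis and 11.77 to 12.16 downstream, against 10.30 to 11.57 in the control, so at both days every graft-site sample lay above every control. KDR, a receptor of vascular endothelial growth factor, was 2.13 ± 0.33 (SE) above the control at the day 5 anastomosis (adjusted p = 9.85e-04 by limma), and CDH5, the cadherin of endothelial junctions, and SOX18, an endothelial transcription factor, were the others that rose there. Without replicate 4 the counts were 3, 0, 0 and 0, where 7.2%, 0.00598%, 0.416% and 0.012% of all features passed. With all replicates, 9.07% and 3.19% of all features were called higher at the day 5 anastomosis and downstream, and 4.77% and 0.646% at day 14. The part of endothelial cells in the SAA3 difference was not tested.

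Of 5 neutrophil markers tested, 0 rose and 1 fell at the day 5 anastomosis, 1 rose and 2 fell in the day 5 downstream vein, 1 rose and 2 fell at the day 14 anastomosis, and 0 rose and 2 fell in the day 14 downstream vein. The riser was FCGR3A, an Fc receptor, at 0.86 in the day 5 downstream vein and 0.87 at the day 14 anastomosis. PGLYRP1, a peptidoglycan-binding protein of neutrophil granules, fell in all 4 comparisons, at -0.68 in both day 5 comparisons, -0.89 at the day 14 anastomosis and -0.61 in the day 14 downstream vein, and CXCR2 fell in all but the day 5 anastomosis. Without replicate 4, 1 fell at the anastomosis on each day, PGLYRP1 at day 5 and CXCR2 at day 14, and 0 passed otherwise. Of all features 7.2% and 0.416% then passed at the anastomosis on days 5 and 14, and 0.00598% and 0.012% downstream. S100A8, S100A9 and S100A12 had no named probe, and the part of neutrophils in the SAA3 levels was not tested. Of the epithelial markers, 0 of 5 passed in any comparison with the control (at most 1 at an unadjusted p under 0.05). Of 6 fibroblast markers, POSTN rose at the anastomosis on both days, at 1.49 and 2.95, and THY1 at day 14, at 1.12. The T and NK cell markers NKG7 and CD4 rose at the day 14 anastomosis, at 0.86 and 0.42. There the lymph node marker CCL21 rose by 3.13. XBP1, of the B and plasma cell markers, fell at both day 5 graft sites, at -0.61 and -0.69. None of these calls passed without replicate 4.

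Over the 24 samples, the mean of the matrix enzyme list correlated with SAA3 at r = 0.78, and over the 16 graft-site samples at 0.77. The macrophage marker mean did so at 0.59 and 0.54, and the receptor list at 0.59 and 0.38. The smooth muscle markers had r = -0.59 and -0.29, and the endothelial markers 0.33 and -0.04. The acute-phase list had r = -0.23 and -0.65, the adipocyte markers -0.24 and -0.52, and the hepatocyte markers -0.12 and -0.48. The remaining lists lay between -0.22 and 0.33 over the 24 samples and between -0.55 and 0.24 over the 16. These are descriptions of samples that share sites, arrays and scan batches.

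The genes most like SAA3 over the 24 samples, of 5637 symbols compared by Pearson's r, were M6PR at 0.90, UNC5B at 0.87, and MADCAM1, LMNB1, CHST11, TIMP1 and MDM2 at 0.86. ATP13A3 and HNRNPAB followed at 0.85 and CLEC5A at 0.84. M6PR is a mannose 6-phosphate receptor that carries lysosomal enzymes, MADCAM1 an adhesion molecule for lymphocytes on vessel endothelium, LMNB1 a lamin of the nuclear envelope and CLEC5A a lectin receptor of myeloid cells. Over the 16 graft-site samples alone r was 0.95 for M6PR and 0.91 for TIMP1, and over the 8 controls it was 0.71 and 0.45. Of the 10 genes, 5 stayed among the 10 without replicate 4.

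The genes were chosen for this likeness, and SAA3 for its day 5 rise, so their levels and differences are a description and no p is given. M6PR had mean log2 levels of 11.56 at the day 5 anastomosis, 11.08 downstream and 10.69 in the control, and 10.93, 10.35 and 10.55 at day 14. Its day 5 anastomosis-to-control difference was 0.87 ± 0.19 (SE). MADCAM1 had 10.77 at the day 5 anastomosis, 9.94 downstream and 7.73 in the control, and differed by 3.04 ± 0.61 (SE). UNC5B, a netrin receptor, was well above background in 1 of 4 day 5 controls. The genes least like SAA3 were RYR2, a calcium release channel of muscle, at -0.88, SPARCL1 and FAM107A at -0.83, and NDRG2 and TMEM182 at -0.82.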

How the data were processed

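Total RNA was labelled with a 2-colour protocol per the labels, and, per the file headers, the scans were quantified in Feature Extraction (Agilent, version 10.5.1.1). The deposited scanner files hold spot intensities that were not normalised. The authors' deposited value table holds log2-like values, with no normalisation named by the labels or headers. Its gene-centred columns were set against the scanner files, and column medians were 7.34 to 7.42.

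Mean foreground intensities were background-corrected (limma 3.58.1, R 4.3.3, normexp with offset 50), loess-normalised within arrays and Aquantile-normalised between arrays. Each channel was then used as log2 intensity. Spots of a probe were averaged, and the brightest probe stood for a symbol. Of 43603 probes 8847 had a symbol, 5989 symbols in all, and the tests ran over 33451 features, those that at least 4 of 24 samples had well above background. Site comparisons used lmFit and eBayes on 24 samples with 8 blocks of 3, and day comparisons used the 8 samples of that site without a block. P-values were two-sided and Benjamini-Hochberg adjusted over all features, with a threshold of 0.05. The script was tested on simulated data. For other SAA3 probes, the probe replaced the brightest in the fit.

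The members and the gene lists were chosen with earlier results of these data known. Named genes were taken from a fixed list of acute-phase genes, up to 3 called genes with the largest difference per list and comparison, and the 10 genes most and 5 least like SAA3. Not every value of these genes is printed. Samples of a number and day deviated together in 24 of 24 site pairs (r = 0.175 to 0.812, of which 8 pairs shared an array, 0.216 to 0.812), which is where the block comes from, beside the shared arrays and numbers. Nothing in the labels says that a number is an animal, and p-values measure the spread between these samples. The number of arrays limits the precision.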

Additional observations from a re-analysis of the deposited data

Results flagged for a closer look

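In 4 of the 48 groups of 4 values examined, a single sample stood apart by Dixon's gap criterion, which chance alone does in about 1 of 20 groups. For 3 of the 4 SAA3 probes this was replicate 1 of the day 5 downstream vein, which was low. It was at 10.58 on the log2 scale for A_72_P337818, at 8.55 for A_72_P165616 and at 7.22 for A_72_P298339. For A_72_P144946 it was replicate 4 of the day 14 anastomosis, high at 7.50.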

How the results depend on the processing

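The difference of SAA3 between anastomosis and control at day 5 was above 0 in all 19 alternatives run. It was 5.21 with median centring within arrays, 5.04 in the deposited value table, 3.04 with probe A_72_P165616, 2.36 with A_72_P298339 and 0.91 with A_72_P144946, and 4.30 to 4.67 leaving out each replicate. At day 14 median centring gave 3.06 with an adjusted p of 0.0419. Under that setting the median over all features was 0.102 to 0.194 in the comparisons with the control, against 0.00236 to 0.00872 as reported. For downstream minus control at day 14, replicates 1 and 2 alone gave -1.70, A_72_P165616 -0.17 and A_72_P298339 -0.31. Replicates 3 and 4 alone gave -0.042 for anastomosis minus downstream at day 5 and 0.22 for the control at day 14 minus day 5. The causes were not tested.

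Leaving out each replicate gave 1.69 to 3.39 for anastomosis minus control at day 14, 1.99 to 3.87 and -1.06 to 1.28 for downstream minus control at days 5 and 14, and 0.60 to 2.56 and 1.35 to 3.60 for anastomosis minus downstream. Day 14 minus day 5 ran from -3.81 to -1.39 at the anastomosis, -2.80 to -2.21 downstream and -1.05 to 0.98 in the control, and the change of the anastomosis difference from -2.97 to -0.91. With no replicate block, anastomosis minus control at day 14 was 2.43 with an adjusted p of 0.456. With a replicate block, downstream at day 14 minus day 5 was -2.47 with an adjusted p of 0.377, and the block changed no call of SAA3.

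Counts of all features past the threshold were 6470 and 2941 for anastomosis minus control at days 5 and 14, and 2740 and 308 for downstream minus control. They were 2292, 551, 328 and 11 with no replicate block, 2408, 139, 2 and 4 without replicate 4, and 2, 1, 0 and 0 with replicates 1 and 2 alone. Replicates 3 and 4 alone gave 3971, 3258, 3355 and 1806. Median centring gave 10995, 13730, 8620 and 10147, of which 80.7%, 74.8%, 83.1% and 77.4% were higher, against 46.9%, 54.3%, 39.0% and 70.1%. Without replicate 3 downstream minus control had 6 at day 5. With only the samples compared, the day 14 counts were 57 and 0, and the value table had 6618 and 593 for downstream minus control. The acute-phase list had 4, 4, 4 and 5 genes past the threshold with median centring, and 3, 3, 7 and 0 in the value table. Of 110 called values of named genes, 31 passed without replicate 4. With median centring TRAF6 was at 0.13 and XBP1 at 0.61 at the day 5 anastomosis, and XBP1 at 0.37 downstream. A slide block could not be fitted for day comparisons, because only 1 slide holds more than 1 sample of a site. Day comparisons already used only the samples compared.

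The wide spread of SAA3 among 4 samples limits what can be detected, and dim probes limit A_72_P144946.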
